A study of Homo sapiens with 5 samples.

Results

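The subject here is a set of MYF5 binding summits, mapped in RH18 cells, that fell inside acetylated chromatin of RD cells and outside that of RH18 cells. RD and RH18 are established human lines of fusion-negative rhabdomyosarcoma, a tumour mostly of childhood that resembles immature skeletal muscle and, in this form, lacks the PAX-FOXO1 fusion gene. Chromatin immunoprecipitation and sequencing (ChIP-seq) had been run for histone H3 acetylated at lysine 27 (H3K27ac) in both lines and for MYF5 in RH18, with 1 library in each of these 3 groups and an input sample per line. Both lines were grown in the same serum-supplemented medium without any treatment named in the labels, so cell line and library cannot be told apart in what follows. The H3K27ac antibody came from Active Motif and the MYF5 antibody from Santa Cruz, chromatin was fixed with formaldehyde, and MYOD, which the series title also names, was not analysed here. A summit is the base of highest signal in a listed peak, and a region is a listed H3K27ac peak. The members were chosen by positions alone: the rule took each RH18 MYF5 peak whose summit lay inside an RD region and inside no RH18 region. It found 711 of 11136 MYF5 summits (6.38%, exact Clopper-Pearson 95% interval 5.94 to 6.85%). The share over all MYF5 summits is the same 6.38%, since the rule itself sets it, and it was given no test. Where MYF5 binds in RD cells was not analysed here, so these are sites bound in one line and acetylated in the other.

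MYF5 is a basic helix-loop-helix factor that pairs with E proteins, binds E-box sequences and starts the muscle program in progenitor cells. H3K27ac is laid down by the acetyltransferases p300 and CBP on nucleosomes beside active enhancers and promoters. Because a bound factor and an open site displace nucleosomes, H3K27ac signal commonly dips at the bound base itself and peaks on the nucleosomes to either side. A summit outside a listed region can therefore lie in such a dip or far from any acetylation, and the distance to the nearest RH18 region was measured for every summit of the set.

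The lists differed in length and in the p-value at which they ended. The RD list held 43159 regions over 21.2 Mb, and the RH18 list held 46408 regions over 32.5 Mb. Tags, the sequenced fragments piled up at a summit, were worked back from the listed fold and p-value, with a median of 85.0 in the RD list, 57.0 in the RH18 list and 42.0 in the MYF5 list; these scales hold within a list, since total reads are unknown. The RD list reached down to a −log10 p-value of 5.00 and the RH18 list to 7.09. Of the 711 summits, 12 sat in an RD region below 7.09. That count uses RD values alone, so it cannot show whether RH18 signal at a summit fell just under the limit of its list. Intervals below cover counting error only, because no group had a second library.

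About the same number of these summits lay beside an RH18 region as lay away from one. Within 500 bp of an RH18 region were 345 of the 711 (48.5%, 44.8 to 52.3%), beside 72.1% of all MYF5 summits, a figure that includes those inside regions. Within 150 bp were 185 (26%, 22.8 to 29.4%), and for 176 the MYF5 peak itself touched an RH18 region although its summit did not. In distance bands of unequal width, 435 summits lay within 1000 bp, 80 between 1000 and 5000 bp, 25 between 5000 and 10000 bp and 103 between 10000 and 50000 bp. The farthest 68 had no RH18 region within 50000 bp, and 31 of them none within 100000 bp.

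**Figure D1:**
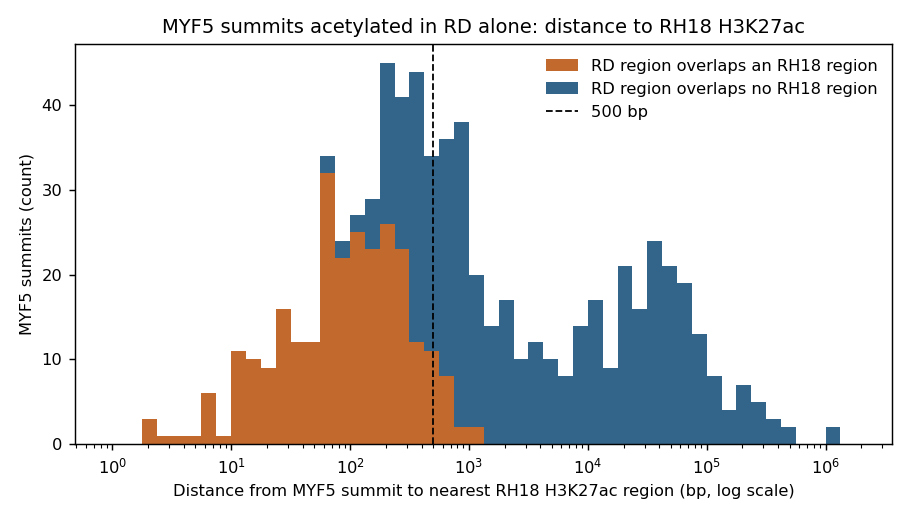
Distance from each of the 711 MYF5 summits to the nearest RH18 H3K27ac region, in bp on a log axis, with counts on the vertical axis; colours split the summits by whether their RD region overlaps an RH18 region. Most orange counts stand left of the dashed line at 500 bp, and the 196 summits above 5000 bp are all blue.

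The summits acetylated in RD lay near RH18 acetylation more often than MYF5 summits that were in no region of either line. This is a description, since both classes were set by position against the same lists. Over the RD list 60.0% of regions overlapped an RH18 region, so a place inside an RD region in part fixes the closeness. Of the latter, 35.9% (34.4 to 37.3%) of 4275 were within 500 bp of an RH18 region, a difference of 12.6 percentage points (Newcombe 95% interval 8.7 to 16.6). Within 5000 bp the shares were 72.4 and 55.8%, a difference of 16.7 points (13.0 to 20.2). Flanking by RH18 regions on both sides within 500 bp was found at 84 of the 711 summits (11.8%) and at 10.6% of summits in neither line, and that difference of 1.2 points (-1.1 to 4.0) was within counting error.

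The mirror set, 2414 MYF5 summits inside RH18 regions and outside RD regions, lay right next to regions of the other line more often. Within 150 bp of an RD region were 40.9% (39.0 to 42.9%) of the mirror set, against the 26% of this set within 150 bp of an RH18 region. Within 500 bp of an RD region were 52.1% (50.1 to 54.1%) of the mirror set, against the 48.5% above, and the interval of the difference (-7.8 to 0.6 points) included 0. Within 5000 bp the shares were 62.8% in the mirror set and 72.4% here, 9.6 points apart (5.7 to 13.3). The RD-acetylated summits thus had a smaller share beyond 5000 bp than the mirror set had. The RH18 list covers more bases than the RD list, which shortens distances to it, and its part in this difference was not tested.

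Whether the RD region reached an RH18 region elsewhere along its length split the set further. In 269 cases (37.8%, 34.3 to 41.5%) the RD region that held the summit overlapped an RH18 region at some other point, with the MYF5 summit itself outside it. Over the whole RD list, 60.0% of regions overlapped an RH18 region, a share counted per region and not per summit. The rule leaves out every summit inside the overlap itself, which lowers the share in the set in advance. In the other 442 cases the whole RD region was without an RH18 counterpart. Among the 345 summits within 500 bp of an RH18 region, 251 (72.8%) were in such overlapping RD regions, and among the 366 farther away only 18 (4.92%) were. For 68 summits the RD region spanned 2 or more RH18 regions.

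The RD regions of these kinds differed in size and strength, as a description of what the rule selected. RD regions that overlapped RH18 were wide, with a median of 1112 bp (quartiles 733 and 1654) and 149 tags (108 and 196). RD regions that overlapped no RH18 region had a median width of 395 bp (255 and 617) and 74.0 tags (50 and 117). For comparison, summits inside regions of both lines sat in RD regions with a median of 721 bp and 161 tags. The overlapping kind was thus the widest of the 3. Its tags were nearer to those of RD regions around summits in both lines than to those of the other kind. The local RD background, relative to the lowest of its list, had a median of 1.14 for the whole set and 3.22 for summits in both lines, and its part in these values was not tested.

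**Figure D2:**
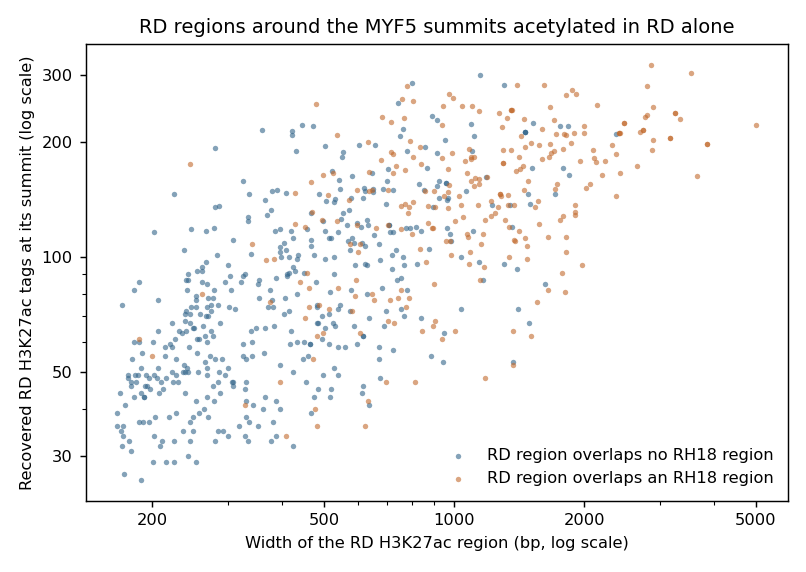
Width in bp and recovered tags of the RD H3K27ac region around each of the 711 MYF5 summits, both on log axes; each point is 1 summit. Regions that overlap an RH18 region (orange) lie toward the upper right, with medians of 1112 bp and 149 tags, and the others (blue) toward the lower left, with 395 bp and 74.0 tags.

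MYF5 summits also sat at different places in the RD regions. In RD regions that overlapped RH18, the median distance from the MYF5 summit to the RD H3K27ac summit was 299 bp (95% interval of the median 286 to 353). It was 106 bp (95 to 120) in RD regions without an RH18 counterpart and 110 bp (105 to 116) for summits inside regions of both lines. The distance is bounded by the width of the region, which was also largest for the overlapping kind. From the nearer edge of the RD region the medians were 226 and 91.5 bp in the overlapping and other kind.

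Peak height was not part of the rule, and the height of MYF5 at these sites was close to that elsewhere. The summits rested on 21 to 286 tags with a median of 42.0 (95% interval of the median 40.0 to 44.0). The medians were 41.0 tags (40.0 to 41.0) in regions of both lines, 43.0 (42.0 to 44.0) in RH18 regions alone and 44.0 (43.0 to 45.0) in neither. By tags, then, the median MYF5 peak at RD-acetylated sites was not distinguishable by these intervals from that in regions of both lines or of RH18 alone. The median fold was 12.499 (11.9 to 13.1) here and 12.2 in neither line, and lower in RH18 regions alone, at 10.6 (10.4 to 10.9), and in both lines, at 9.997 (9.90 to 10.2). Fold was thus higher in the classes outside RH18 regions. The recovered local background under the MYF5 peaks ran the opposite way. Over the lowest of the list, its median was 1.00 here, 1.04 in neither line, 1.46 in RH18 regions alone and 1.54 in both lines. Fold is a ratio over this background, so at equal tags it is higher where background is lower. A background of at least 4 times the lowest was found under 8 of the 711 summits (1.13%), against 4.91% of all MYF5 summits and 5.11% of those in regions of both lines.

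**Figure D3:**
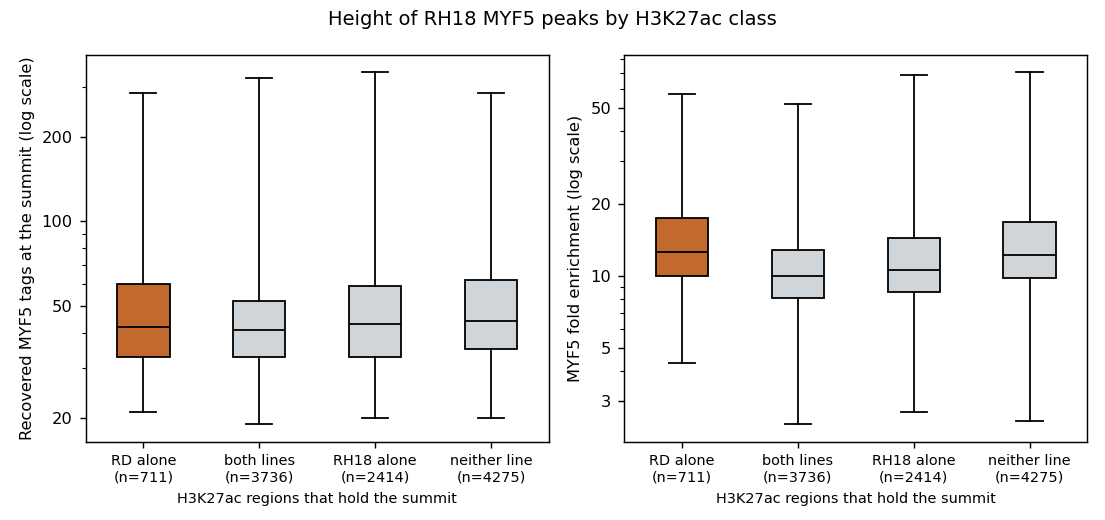
Recovered tags (left) and fold enrichment (right) of RH18 MYF5 peaks, on log axes, for the 4 classes by which H3K27ac regions hold the summit; boxes show quartiles and median, whiskers the lowest and highest peak. Median tags lie between 41.0 and 44.0 in all classes, while the median fold of the RD-acetylated summits (orange, 12.499) stands above the 9.997 of summits in regions of both lines.

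Among MYF5 summits inside RD regions, those with the most tags lay outside RH18 regions most often. All MYF5 peaks were divided into quintiles by tags, and within each the share outside RH18 regions was taken over summits inside RD regions, 16.0% of which were of this kind in all. From quintile 1 (19 to 32 tags) to quintile 4 (47 to 63 tags) it was 14.9, 15.4, 14.5 and 14.1%. In quintile 5 (63 to 339 tags) it was 22.7% (19.6 to 26%), or 157 of 693 summits. Summits within 500 bp of an RH18 region made up 7.61, 7.43, 6.90, 5.20 and 12.8% (10.4 to 15.6%) over quintiles 1 to 5, and those farther away 7.30, 7.96, 7.64, 8.94 and 9.81% (7.70 to 12.3%). Both shares were highest in quintile 5, and the interval of the far share there overlapped that of quintile 1 (5.75 to 9.12%). Taken over all MYF5 summits of a quintile, the set made up 6.51, 6.51, 6.24, 5.61 and 7.05% (6.02 to 8.19%). That last interval overlapped those of the other quintiles. Summits inside RD regions numbered 972, 942, 956, 884 and 693, so the 22.7% of quintile 5 was taken over the fewest. Across the 711 summits MYF5 tags had little relation with RD tags (Spearman rho 0.13) or with the distance to RH18 (rho -0.03), which are descriptions over peaks of the same libraries.

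The distance to RH18 went with the size of the RD region and not with MYF5 height. The part on RD size is a description, since the positions of the same regions set both. Up to 150 bp from RH18, 174 of the 185 summits sat in an RD region that overlapped an RH18 region, which takes some width. From the nearest band (up to 150 bp) through 150 to 500, 500 to 5000 and 5000 to 50000 bp to the farthest (over 50000 bp), median MYF5 tags were 42.0, 42.0, 43.5, 41.5 and 42.0. Median RD tags in the same bands were 141, 100.5, 87.5, 71.0 and 85.5, and median RD widths were 974, 582, 470, 438 and 441 bp. RD regions were thus largest where RH18 regions were adjacent, and above 5000 bp they were no smaller in the last band than in the one before it.

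The 10 summits of highest MYF5 fold, 39.4 to 57.1, showed both kinds, with 5 within 500 bp of an RH18 region, 4 in an RD region that overlapped one, and 2 more than 5000 bp away. All positions are on hg19. The highest was on chromosome 2 (201042632 to 201043241, fold 57.1, 184 tags). Its nearest RH18 region, of fold 60.9, began 57 bp away, and it was inside a 1288 bp RD region with 219 tags, so RH18 acetylation there was strong but began beside the bound base. The next, on chromosome 1 (214170433 to 214170827, fold 56.3, 172 tags), lay 6 bp from an RH18 region that was weak, with 19 tags. The third, on chromosome 14 (62013884 to 62014516, fold 46.9), lay 199 bp from a strong one of 273 tags. By tags, the weakest RD regions of the 10 lay under a pair of them. On chromosome 2 (237519635 to 237520020, fold 46.2) the RD region had 36 tags, and on chromosome 5 (97550419 to 97550765, fold 45.6) it had 35. Stronger RD regions lay under a summit on chromosome 8 (31880848 to 31881161, fold 39.4), with 300 tags and 2066 bp from an RH18 region, and under one on chromosome 9 (89775370 to 89775688, fold 39.4), with 257 tags and 218 bp away. The remaining one, on chromosome 10 (129417818 to 129418273, fold 39.8), sat in an RD region of 110 tags, 984 bp from an RH18 region. High MYF5 signal was thus found over both strong and weak RD acetylation.

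The 2 of these 10 far from RH18 regions were on chromosomes 8 and 21. The summit on chromosome 21 (36628817 to 36629342, fold 41.7, 127 tags) lay 30180 bp from an RH18 region, in a 527 bp RD region of 90 tags. Around it, RD had 16 region summits within 50 kb and RH18 had 1. The summit on chromosome 8 (131556772 to 131557181, fold 44.0, 154 tags) lay 6739 bp from an RH18 region, in a 176 bp RD region of 49 tags. There RD had 3 region summits within 50 kb and RH18 had 4, so the neighbourhood was about equal and sparse in the lines.

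More than 5000 bp from any RH18 region lay 196 of the 711 summits (27.6%), beside 18.7% of all MYF5 summits, among which are those inside regions. The 10 of them with the most RD tags had 212 to 285, the last place being tied between 3 summits of 1 RD region. The first was on chromosome 12 (75944297 to 75944470, 32 MYF5 tags), inside a 799 bp RD region of 285 tags, 5170 bp from an RH18 region. MYF5 was low there while RD acetylation was among the highest in the set. The second was on chromosome 8 (129985577 to 129985913, 52 MYF5 tags), in a 1306 bp RD region of 282 tags and 27516 bp from an RH18 region; RD had 44 region summits within 50 kb and RH18 had 1. A summit on chromosome 7 (28939987 to 28940259, 88 MYF5 tags) lay in a 444 bp RD region of 222 tags, 33443 bp from an RH18 region. A summit on chromosome 2 (17981453 to 17981776, 102 MYF5 tags) lay in a 1761 bp RD region of 220 tags, 5887 bp from an RH18 region of 109 tags. The latter pair were well bound and strongly acetylated in RD.

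Of the other 6, the one on chromosome 11 (125994135 to 125994414) differed in its surroundings. It lay 5655 bp from an RH18 region, with 30 RD and 19 RH18 region summits within 50 kb. It was thus a gap in the RH18 list inside a stretch with many listed regions of both lines. The one on chromosome 1 (76251869 to 76252149, 43 MYF5 tags, 214 RD tags) had no RH18 summit within 50 kb and only 2 in RD. The 4 not yet described lay on chromosomes 8 (121587565 to 121587836), 1 (182721399 to 182721600), 2 (200930231 to 200930405) and 12 (89452497 to 89452749), between 9762 and 37853 bp from an RH18 region, with 40 to 106 MYF5 tags.

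Summits of the set seldom shared a region. They lay in 697 RD regions, of which 684 held 1, 12 held 2 and 1 held 3. That 1 was a 1462 bp RD region of 212 tags on chromosome 12 (89452392 to 89453853), and with another summit in the next RD region it made a run of 4 over 1826 bp (runs join summits at most 12500 bp apart). Their MYF5 tags were 40, 38, 51 and 131, and the nearest RH18 region lay 18331 to 19888 bp away. Relative to the lowest value of the MYF5 list, the local background at these peaks was 3.40, 4.87, 2.18 and 2.01, above the median of 1.00 for the set, while the RD background was at 1.000. The part of this raised background in the run was not tested.

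Another run of 4 was on chromosome 6 (148226940 to 148233153). Its summits had 44, 51, 34 and 39 MYF5 tags, lay 305, 945, 191 and 1393 bp from RH18 regions, and sat in 4 separate RD regions of 44, 112, 43 and 33 tags. RD had 19 region summits within 50 kb and RH18 had 10, among them RH18 regions of 254 and 181 tags next to the summits. This was a stretch acetylated in both lines, with more listed pieces in RD, whereas the run on chromosome 12 stood apart from RH18 regions. A run of 3 lay on chromosome 7 (30208875 to 30216335), at 58 to 238 bp from RH18 regions. There were 36 further runs of 2 and 628 single summits.

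**Figure D4:**
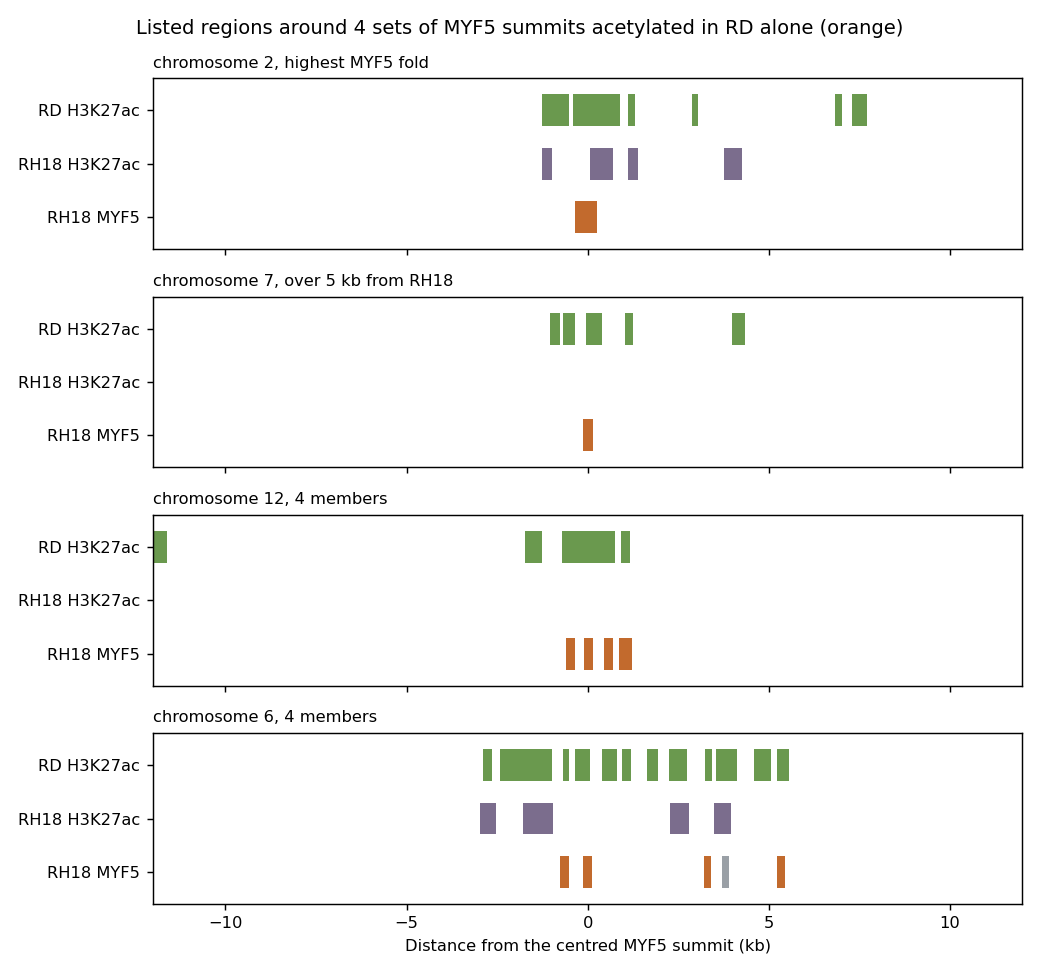
Listed regions and peaks within 12 kb of 4 MYF5 summits acetylated in RD alone, in kb from the centred summit; rows are the 3 lists, and orange marks summits of the set. No RH18 region lies in the windows on chromosomes 7 and 12, while 4 lie in each of those on chromosomes 2 and 6, and none of them holds an orange summit.

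The nearest summits, 2 bp outside an RH18 region, were on chromosomes 1 (28832457 to 28832923), 18 (74820034 to 74820523) and 8 (130365294 to 130365492). Those RH18 regions had 241, 33 and 55 tags. The farthest summits were a pair on chromosome 11 (91523667 to 91523882 and 91605482 to 91605685), 1209235 and 1127425 bp from any RH18 region, and one on the same chromosome at 5706080 to 5706279, 549138 bp away. Their RD regions had 104, 74 and 100 tags and their MYF5 peaks 39, 31 and 35, so the most remote sites were ordinary in height in both libraries. At the edges of the rule, 16 summits lay at most 10 bp outside an RH18 region, with a median of 42.0 MYF5 tags, and 21 summits of both lines lay at most 10 bp inside, with 48. At most 10 bp inside an RD edge lay 36 summits of the set (45.5 tags), and at most 10 bp outside an RD region lay 38 summits of neither line (45.0 tags).

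Chromosomes differed in their share of such summits. The highest shares were on chromosome 8 (65 of 582, 11.2%, 8.73 to 14.0%) and chromosome 9 (25 of 226, 11.1%, 7.29 to 15.9%). The lowest were on chromosome 19 (4 of 552, 0.725%, 0.198 to 1.84%) and chromosome 13 (4 of 241, 1.66%, 0.454 to 4.19%). The intervals of the former pair lie above 6.38% and those of the latter below it. Those of chromosomes 1, 2, 6 and 7 also lie above it, and those of 16, 17 and 22 below it. The extremes were picked after the counts were known, and the intervals are not adjusted for that. Chromosomes 8, 9, 19 and 13 also differed in how many regions each list held. Per 100 RH18 regions RD had 116 on chromosome 8 and 114 on chromosome 9, but 79.6 on chromosome 19 and 69.2 on chromosome 13. Over the 23 chromosomes the share and this ratio had a Spearman rho of 0.70, as a description, since both are counted from the RD and RH18 lists. Chromosome 21 went against it, with 64.3 RD regions per 100 and a share of 8.86% (4.93 to 14.4%).

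**Figure D5:**
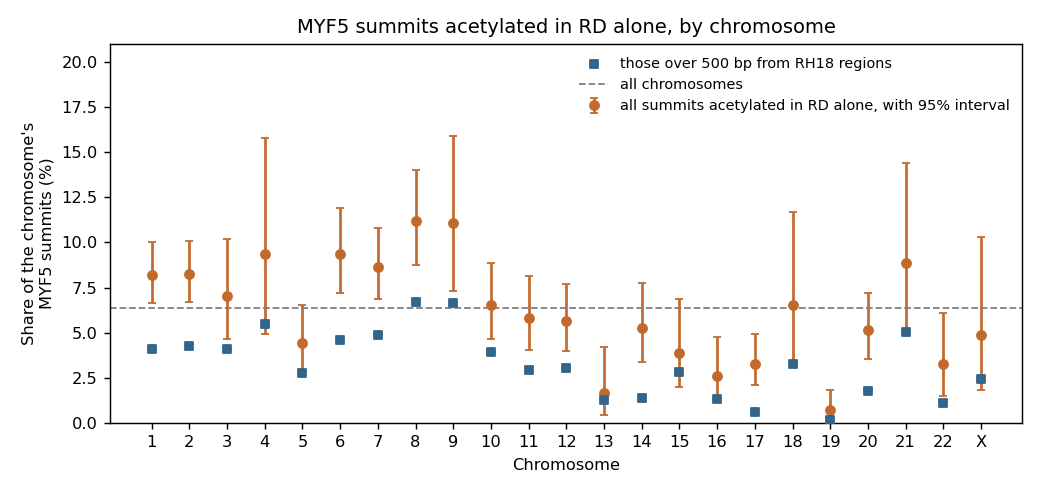
Share of each chromosome's MYF5 summits that were acetylated in RD alone (orange, with exact 95% intervals) and the part of that share over 500 bp from RH18 regions (blue squares), in percent; the dashed line is 6.38%. Chromosomes 8 and 9 stand highest, at 11.2 and 11.1%, and chromosomes 13 and 19 lowest, at 1.66 and 0.725%.

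The set was spread over 483 megabases of the genome, with at most 6 summits in one, and 9 megabases held 5 or more. These 9 were chosen after the counts were known. The one on chromosome 8 from 130000001 held 6 of its 12 MYF5 summits in this class, with 146 RD and 17 RH18 regions. The one on chromosome 12 from 89000001 held 6 of 28, with 49 RD and 14 RH18 regions. These stretches thus held more listed regions in RD than in RH18, which is a count of regions and not of acetylation. In the chromosome 12 megabase the MYF5 background over the lowest reached 6.87 at a summit of the set. The part of local background in these counts was not tested. The one on chromosome 14 from 69000001 held 6 of 34, but with 73 RD and 125 RH18 regions, and the one on chromosome 20 from 52000001 held 6 of 10, with 46 and 43.

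The wider neighbourhood is given as a description, since summits were chosen and divided by their distance to the same RH18 regions. Within 50 kb of a summit lay a median of 7 RD and 4 RH18 region summits for the whole set, and RD had more at 484 of the 711, as many at 60 and fewer at 167. For summits more than 5000 bp from RH18 regions, RD had more at 174 of 196, with 1591 RD and 411 RH18 summits counted in all around them. A direction toward RD is fixed in part by that choice. In the mirror set the medians were 4 RD and 8 RH18 summits, and for summits in both lines they were 6 and 6.

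As held for every class, a neighbour of the same class was more frequent around summits of the set than around the other classes. Most neighbours of the set were nevertheless of another class. For 503 of the 711, the nearest MYF5 summit beyond 5 kb lay within 100 kb. It was in neither line for 41.0%, in both lines for 31.2%, in RD regions alone for 14.7% (74 summits, 11.7 to 18.1%) and in RH18 regions alone for 13.1%. A neighbour in RD regions alone was found for 5.70% (4.87 to 6.63%) of summits in both lines, 3.19% (2.45 to 4.07%) of those in RH18 regions alone and 6.30% (5.45 to 7.24%) of those in neither. A neighbour of the same class was found for 44.7% of summits in both lines, 33.6% of those in RH18 regions alone and 50.4% of those in neither. Each was the highest share for that class of neighbour, so such grouping was not particular to the set. The shares are a description, since all classes were set by position against the same lists. Neighbours can share an H3K27ac stretch, so they are not independent sites.

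Seen from the RD list, MYF5 summits were more frequent in the stronger of the regions without an RH18 counterpart. Of those 17275 regions, 437 held a summit of the set (2.53%, 2.30 to 2.77%). By quintiles of RD tags the share was 1.53, 1.97, 2.03, 2.40 and 4.72% (4.03 to 5.48%), with 93 to 317 tags in the highest. Regions without any MYF5 summit had a median of 59.0 tags and 275 bp, below the 74.0 tags and 395 bp of regions around the summits, and wider regions have more room for a summit. When RD regions within 12500 bp were joined into domains and ranked by summed fold times width, the top 500 held 161 of the 711 summits (22.6%, 19.6 to 25.9%), and 16.2% (15.0 to 17.4%) of summits in both lines. Within the set they held 26.8% (23 to 30.8%) of the summits within 5000 bp of an RH18 region and 11.7% (7.59 to 17.1%) of the 196 beyond. The largest RD domains thus held the near summits more often than the far ones. This is a description, since domains were ranked by fold and width of the RD regions whose positions the rule used. Near summits also sat in wider RD regions. The share of all RD regions, or of all MYF5 summits, in these domains was not counted.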

How the data were processed

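Peak lists of 3 ChIP-seq libraries (RD H3K27ac, RH18 H3K27ac, RH18 MYF5) were used; the 2 input samples were not used here. Per the submitters' processing notes, the tools were BWA 0.7.10 and MACS2 2.1.0 and the build was hg19, with no role or order given; control and threshold are not given in the sources used here. Each list gives, as deposited by the authors, positions, summits, a fold enrichment (a ratio over local background) and −log10 values of p and q; the deposited score was not used. Per-peak values are the authors' own and describe peaks within a list.

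Tags and local background at a summit were worked back from the listed fold and p-value by the formulas of MACS2. They came out whole within 0.1 tag for 100.0% of peaks in each list. A single solution, each of them whole, existed for 23590 of 43159 RD, 42877 of 46408 RH18 H3K27ac and 9067 of 11136 MYF5 peaks. For the others the solution nearest a whole tag was taken, so RD tags are the least certain. The step was tested on simulated data. A tag was worth 0.658 pileup units in MYF5, 0.273 in RD and 0.832 in RH18 H3K27ac, so folds and tags were not compared between lists. Total reads per library, and thus depth, are unknown.

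Summits were assigned by position. Shares carry exact Clopper-Pearson 95% intervals, differences of shares Newcombe intervals, and medians order-statistic intervals, all for counting error only. Each group has 1 library, so no test between lines and no p-value is given. Members, lists and named regions were chosen with earlier results of these data known. Named were the 10 summits of highest MYF5 fold, the 10 with most RD tags beyond 5 kb from RH18 regions, RD regions or runs with 3 or more summits (36 runs of 2 were tied and not singled out), and the 3 nearest and 3 farthest from RH18. Gene annotation and sequence of hg19 were not used here, so regions are given by position, cell identity was not checked against marker genes, and E-box and promoter results were not computed. Software was scipy 1.17.1, numpy 2.4.6 and pandas 2.3.3 under Python 3.11.15, with matplotlib 3.10.9 for figures.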

Additional observations from a re-analysis of the deposited data

How the results depend on the processing

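Of 19 alternatives run on the number of summits, the share near RH18 regions and the median MYF5 height, 12 stayed within 1.5 times the count or within the interval of the main value, and 7 moved. The number of summits, 711, was 366 with RH18 regions widened by 500 bp on each side and 196 with 5000 bp. Among the 5000 MYF5 peaks ranked highest by p-value it was 370. The first pair count the same summits without those near RH18. The last starts from fewer peaks, and as a share it was higher, at 7.40% against 6.38% of all MYF5 summits. The share within 500 bp of an RH18 region, 48.5%, was 53.3% measured from the edge of the MYF5 peak, 26% at a distance of 150 bp, 61.2% at 1000 bp and 72.4% at 5000 bp, which follow from the distance used. A −log10 q-value of at least 10 kept 29466 of 43159 RD regions and gave 606 summits. Both median heights stayed within their intervals under the 2 alternatives run on each. No paired analysis was possible because each group holds 1 library. Alternatives that need sequence or gene annotation were not run. Depth is unknown and the lists end at different p-values, which limits what an absent RH18 region shows.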
